A study of Homo sapiens with 12 samples.

Results

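Enterocytes were treated with vitamin D3 (VD3) or with VD3 and valproic acid (VPA) together, and the difference made by VPA was read across the transcriptome. Enterocytes are the absorptive cells of the gut epithelium, and these were derived from 1 line of human induced pluripotent stem (iPS) cells, RPChiPS771. The comparison set the 3 libraries named VD3VPA (1 µM VD3 and 100 µM VPA) against the 3 named VD3 (1 µM VD3), 6 of the 12 libraries of the study. Both groups were treated from day 15 to day 23, in a medium the labels call M3. The other 6 libraries received neither compound (Control) or 100 µM VPA (VPA), and they serve here as the setting in which VPA acted without VD3. Genes were included when they reached at least 1 FPKM (fragments per kilobase of gene, scaled by library size) in 3 or more libraries and lay outside chromosome Y, which left 12561 of 58735 genes, 10645 of them protein-coding. Assigned fragments numbered 32160289 to 39648591 per library in the 6. The labels do not say whether replicates were separate cultures, and p-values therefore measure the spread between libraries, which may be technical.

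VPA blocks histone deacetylases, the enzymes that strip acetyl groups from histones, and it is itself a short branched fatty acid. VD3, once converted to its hormone, acts through the vitamin D receptor, VDR, which pairs with the retinoid X receptor and raises calcium-handling and CYP genes in the intestine. Enterocytes carry a brush border of digestive enzymes on their apical side, take up lipids, sugars and peptides, and rest on a basement membrane.

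The enterocyte label was checked against marker lists. The 20 enterocyte markers in the table, 19 of them tested, summed to 22882 to 28539.9 FPKM in the VD3 libraries and 24912 to 27986 FPKM in the VD3VPA libraries, most of it APOA1, an apolipoprotein of chylomicrons and HDL (18481 ± 1722 and 18228 ± 976 FPKM, mean ± SD, n = 3). The intestinal transcription factor CDX2 stood at 54.7 ± 1.21 and 50.9 ± 2.13 FPKM, and the microvillus protein villin (VIL1) at 109.7 ± 3.44 and 99.8 ± 2.1 FPKM. Sucrase-isomaltase (SI), a defining disaccharidase of the mature brush border, was near 0, at 0.231 ± 0.083 and 0.105 ± 0.0328 FPKM. Markers of hepatocytes summed to 39748 to 42890 and 36376 to 41496 FPKM, led by alpha-fetoprotein (AFP) at 22931 ± 946 and 22799 ± 1598 FPKM, an abundant transcript of fetal liver. Of 19 tested enterocyte markers 4 rose and 7 fell on adding VPA (21.05% and 36.84%), with a median log2 fold change of -0.13. Of 16 tested hepatocyte markers 1 rose and 1 fell (6.25% each), and none of the 22 listed was at 0 in every library. Leaving out 1 library gave 0 to 1 hepatocyte rises and 1 to 3 falls. Of all genes 17.5% rose and 17.2% fell. The enterocyte and hepatocyte lists share 1 gene, so their sums are not fully separate. Most of the enterocyte sum was APOA1, and whether APOA1 sets enterocytes apart from hepatocytes was not tested. Each library pooled many cells, and fewer cells of a type cannot be told apart from less RNA per cell.

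Adding VPA to VD3 changed many genes by small amounts. A total of 2200 genes were higher (17.5% of those tested) and 2159 were lower (17.2%), 34.7% in all, and 8202 did not pass the threshold (limma, Benjamini-Hochberg adjusted p under 0.05). The median absolute log2 fold change over all tested genes was 0.13, and 67 genes rose (0.533%) and 50 fell (0.398%) by at least 2-fold, on the log2(FPKM + 1) scale. The added 1 FPKM shrinks the fold change of low genes. On the first principal component of these 6 libraries, with 64.7% of the variance, the groups separated. VD3 replicate 3 stood apart from the other 5 libraries on the second component, with 10.8%, and without it 1926 genes were higher and 1943 lower. The share of fragments from mitochondrial genes was 3.999% to 4.253% with VD3 and 4.66% to 4.72% with VPA added.

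**Figure D1:**
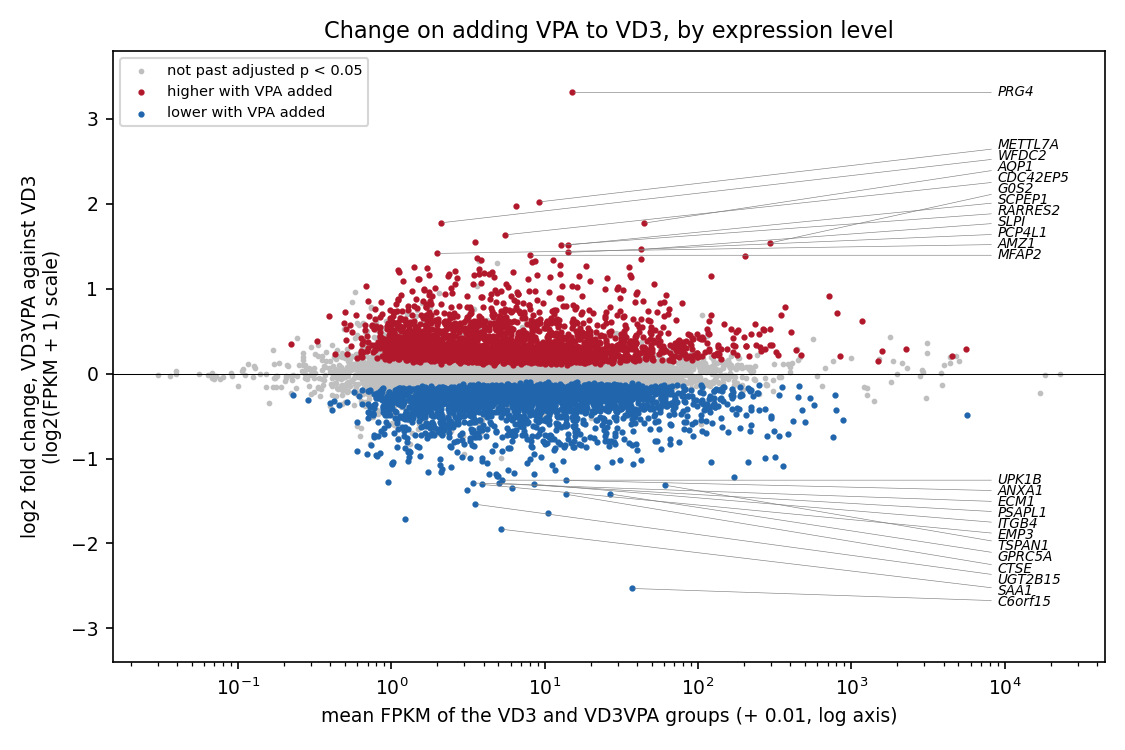
Each point is 1 of the 12561 genes tested: mean FPKM over the 6 libraries on a log axis, against the log2 fold change of VD3VPA over VD3. Red and blue points are the 2200 higher and 2159 lower genes, and PRG4 at the top and C6orf15 at the bottom lie farthest from 0 among the protein-coding genes labelled.

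The 12 largest rises and 12 largest falls were taken from called protein-coding genes whose groups did not overlap. Separation of their groups was therefore set by that choice. The steepest rise was in PRG4, which encodes lubricin, a secreted glycoprotein that lubricates joints and other surfaces. PRG4 (chromosome 1, 186296279 to 186314562, GRCh38) stood at 1.73, 1.95 and 2.16 FPKM with VD3 and 32.7, 27.6 and 24.8 FPKM with VPA added. The difference in mean FPKM was 14.6-fold (log2 fold change 3.31, SE 0.09, adjusted p = 3.4e-09). It was near 0 without VD3, with 0.0824, 0.0377 and 0.065 FPKM in Control and 0.0501, 0.0129 and 0.0617 FPKM with VPA alone. PRG4 overlaps the gene TPR, whose own log2 fold change was -0.02 (adjusted p = 0.85), and fragments in the overlap cannot be assigned to either with certainty.

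The other 11 of the 12 largest rises included genes for secreted and membrane proteins. The water channel AQP1 measured 21.8, 19.7 and 17.2 FPKM with VD3 and 70.3, 66.4 and 69.9 FPKM with VPA added, 3.52-fold higher (log2 fold change 1.77, SE 0.12, adjusted p = 3.3e-06). SLPI, a secreted inhibitor of leukocyte proteases, measured 21.7, 21.9 and 22.6 FPKM with VD3 and 74.1, 59.2 and 55.7 FPKM with VPA added (log2 fold change 1.46, SE 0.10, adjusted p = 3.4e-06). WFDC2, a related secreted protein, rose from 0.405 ± 0.127 to 3.8 ± 0.342 FPKM, a log2 fold change of 1.77. Chemerin (RARRES2), a secreted chemoattractant first found as a retinoid-responsive gene, rose from 6.18 ± 0.82 to 19.4 ± 0.669 FPKM. MFAP2, a component of elastic microfibrils, rose from 3.98 ± 0.393 to 12 ± 0.531 FPKM.

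G0S2, an inhibitor of the triglyceride lipase ATGL, was the most abundant gene among these rises. It measured 169, 143 and 144 FPKM with VD3 and 454, 443 and 431 FPKM with VPA added (log2 fold change 1.54, SE 0.17, adjusted p = 7.3e-05). METTL7A, a methyltransferase of the endoplasmic reticulum and lipid droplets, measured 3.53, 2.92 and 2.63 FPKM with VD3 and 16.4, 14.2 and 15.4 FPKM with VPA added. Its log2 fold change of 2.02 was the second in size (adjusted p = 9.6e-07). CDC42EP5, an effector of the small GTPase CDC42, rose 4.02-fold and the serine carboxypeptidase SCPEP1 3.12-fold. PCP4L1 and AMZ1 completed the 12, at log2 fold changes of 1.43 and 1.41, and AMZ1 overlaps GNA12, so its value is uncertain.

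The 12 largest falls were led by C6orf15, a gene beside the HLA class I region (chromosome 6, 31111223 to 31112559). It measured 58, 73.1 and 62.4 FPKM with VD3 and 10.6, 9.62 and 10.6 FPKM with VPA added, 6.26-fold lower (log2 fold change -2.53, SE 0.10, adjusted p = 1.2e-07). Without VD3 it was low, with 0.859, 1.04 and 1.17 FPKM in Control and 0.0985, 0.344 and 0.124 FPKM with VPA alone. The acute phase apolipoprotein SAA1 measured 10.3, 8.82 and 6.94 FPKM with VD3 and 1.77, 1.42 and 1.91 FPKM with VPA added (log2 fold change -1.83, SE 0.13, adjusted p = 5.1e-06), though SAA1 shares much of its sequence with SAA2 and its fragments may not be fully separated.

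The other falls included genes for membrane and matrix proteins. GPRC5A, a retinoid-induced orphan receptor, measured 37.5, 45.6 and 34.2 FPKM with VD3 and 13.9, 14.5 and 13.4 FPKM with VPA added, with a log2 fold change of -1.42. The tetraspanin TSPAN1 measured 87.4, 98.3 and 77.1 FPKM with VD3 and 35, 34.6 and 33.9 FPKM with VPA added (log2 fold change -1.31, SE 0.11, adjusted p = 1.3e-05). UPK1B, a plaque protein of urothelium, fell by 1.255 on the log2 scale, EMP3 by 1.30 and the extracellular matrix protein ECM1 by 1.29. Annexin A1 (ANXA1), a membrane-binding protein with anti-inflammatory roles, fell from 19.999 ± 1.99 to 7.76 ± 0.304 FPKM. The integrin subunit ITGB4 of hemidesmosomes fell from 12.6 ± 1.28 to 4.51 ± 0.436 FPKM, and it overlaps GALK1. The aspartic protease cathepsin E (CTSE) fell from 20.7 ± 3.63 to 7.02 ± 0.285 FPKM. UGT2B15 and PSAPL1 fell by 1.54 and 1.29; UGT2B15 has near-identical relatives and PSAPL1 lies within SORCS2, so both are uncertain.

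Among the called protein-coding genes, the largest falls in absolute FPKM were in TTR, the thyroid hormone and retinol-binding protein carrier transthyretin, in the lysosomal protease CTSB, in the cytoplasmic actins ACTB and ACTG1, and in PHGR1, an intestinal epithelial gene. TTR measured 6425, 6170.5 and 7175 FPKM with VD3 and 4909.9, 4628 and 4565 FPKM with VPA added (log2 fold change -0.49, adjusted p = 0.002). CTSB measured 971, 955 and 915 FPKM with VD3 and 580.4, 562 and 554 FPKM with VPA added (log2 fold change -0.74, SE 0.05, adjusted p = 4.2e-06). PHGR1 measured 466, 548 and 455 FPKM with VD3 and 223, 244 and 221 FPKM with VPA added, 2.13-fold lower. None of the 3 overlapped between groups. CTSB overlaps AC025857.2, and the actin genes have processed pseudogenes and share sequence, which makes their counts less certain. The largest absolute rises among called genes were in MT-CO1, MT-CO2 and MT-ND1 of the respiratory chain, in CYP24A1 and in AHSG, the plasma protein fetuin-A. AHSG rose from 499 ± 80.4 to 939 ± 84.6 FPKM (adjusted p = 0.014), a call lost without VD3 replicate 2 (adjusted p = 0.0529) or VD3VPA replicate 1 (adjusted p = 0.0505).

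Targets of the vitamin D receptor held both rises and falls, with CYP3A4 changing most. In the list of VDR targets and vitamin D metabolism, 9 of 25 tested members rose and 6 fell, 36% and 24%, with a median log2 fold change of 0.19 against 0.01 over all genes, of which 17.5% rose and 17.2% fell. The median was 0.11 without VD3VPA replicate 3 and 0.06 with no filter on low values. For this and the following pathway lists, a count that moved by more than 1.5 times, also as a share of the members tested, when 1 library was left out or another setting was used is given beside it. CYP3A4, the main drug-oxidizing cytochrome P450 of gut and liver (chromosome 7, 99756960 to 99784265), measured 22.9, 22.3 and 25.5 FPKM with VD3 and 64.9, 61.4 and 58.4 FPKM with VPA added. The groups were far apart, at 2.61-fold (log2 fold change 1.35, SE 0.06, adjusted p = 3.3e-07). It was close to 0 without VD3, with 0.0472, 0.0202 and 0.0149 FPKM in Control and 0.197, 0.156 and 0.0721 FPKM with VPA alone. CYP3A4 has close relatives in its cluster, and its counts carry that uncertainty.

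Calcium and vitamin D genes moved by less. TRPV6, the apical calcium channel (chromosome 7, 142871203 to 142885762), measured 33.5, 33.3 and 33 FPKM with VD3 and 45.9, 46.1 and 45.9 FPKM with VPA added, with tight groups that did not overlap (log2 fold change 0.46, SE 0.10, adjusted p = 0.0044); with a pseudocount of 0.1 FPKM its adjusted p was 0.314. CYP24A1, which inactivates the vitamin D hormone, measured 857, 918 and 1008 FPKM with VD3 and 1335, 1504 and 1442 FPKM with VPA added, a log2 fold change of 0.62 (adjusted p = 0.034). That call was lost without VD3 replicate 1 (adjusted p = 0.0986), VD3 replicate 2 (adjusted p = 0.0814), or VD3VPA replicate 1, 2 or 3 (adjusted p = 0.0592, 0.0937 and 0.0808). S100G, the calcium-binding protein calbindin-D9k, measured 1424, 1448 and 1734 FPKM with VD3 and 2295, 1879.6 and 2032 FPKM with VPA added and did not pass (adjusted p = 0.62). Its groups did not overlap, and it passed when the 6 libraries were fitted alone (adjusted p = 0.0162) and with voom on recovered fragments (adjusted p = 0.0423).

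The pore-forming claudin CLDN2 rose from 47.9 ± 3.6 to 82 ± 2.06 FPKM, although it overlaps MORC4. The phosphatase DUSP10, another reported VDR target, went the other way, from 2.1 ± 0.559 to 0.986 ± 0.0329 FPKM (log2 fold change -0.63, adjusted p = 0.0018). The receptor itself did not pass: VDR stood at 2.87 ± 0.0607 FPKM with VD3 and 3.43 ± 0.0869 FPKM with VPA added, and RXRA at 11.5 ± 0.77 and 10.7 ± 0.152 FPKM. The VDR means lay further apart than their SDs, so the miss does not show that VDR was unchanged.

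The promoters of CYP3A4, TRPV6 and RBP2 are shown because nuclear receptors bind hexamers of the AGGTCA kind and because the 3 genes rose at different starting levels. Availability also set the choice: CYP24A1 and S100G had no usable single promoter entry. Each runs from 250 bases before to 50 bases after the RefSeq start on GRCh38.p14, on the minus strand, and capitals mark matches on either strand to AGGTCA or AGTTCA or GGTTCA or AGGTGA.
CYP3A4: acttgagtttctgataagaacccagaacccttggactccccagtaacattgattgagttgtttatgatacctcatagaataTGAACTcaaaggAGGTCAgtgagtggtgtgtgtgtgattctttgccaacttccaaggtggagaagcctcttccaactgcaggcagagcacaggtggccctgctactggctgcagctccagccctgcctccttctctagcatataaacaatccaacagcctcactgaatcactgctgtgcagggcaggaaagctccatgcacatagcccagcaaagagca
TRPV6: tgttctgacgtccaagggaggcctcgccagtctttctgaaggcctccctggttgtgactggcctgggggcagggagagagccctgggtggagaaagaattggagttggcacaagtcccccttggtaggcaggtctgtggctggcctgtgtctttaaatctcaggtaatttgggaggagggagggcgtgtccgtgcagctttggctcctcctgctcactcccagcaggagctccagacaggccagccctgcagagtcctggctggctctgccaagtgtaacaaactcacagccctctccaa
RBP2: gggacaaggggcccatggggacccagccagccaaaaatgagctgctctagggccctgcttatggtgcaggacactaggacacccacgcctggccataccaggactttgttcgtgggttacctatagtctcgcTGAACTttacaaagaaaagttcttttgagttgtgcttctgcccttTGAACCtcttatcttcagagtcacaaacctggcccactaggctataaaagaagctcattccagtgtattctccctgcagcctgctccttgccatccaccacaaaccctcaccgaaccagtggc
The windows lie at chr7:99784135-99784434, chr7:142885696-142885995 and chr3:139476467-139476766. The RBP2 window lies wholly within the span of the counted gene, given below, and the outer end of that span was not searched. CYP3A4 held the pair TGAACTNNNNNNAGGTCA from base -169 relative to its start, made of an AGTTCA on the opposite strand and an AGGTCA at -157. That pair was in 3 of 35116 promoters of this length (0.00854%). The pattern searched was the arrangement of the CYP3A4 window itself, so its presence there is not a finding. No other order, orientation or spacing of the hexamers was searched, so this share does not say how rare a pair of them is. RBP2 held AGTTCA at -118 and GGTTCA at -73, both on the opposite strand, and none of these letters was in the TRPV6 window. At least 1 of the 4 hexamers was in 39.9% of promoters, with AGGTCA in 13.8%, AGTTCA in 10.4%, GGTTCA in 8.62% and AGGTGA in 16.3%, so a hexamer match alone is common.

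**Figure D2:**
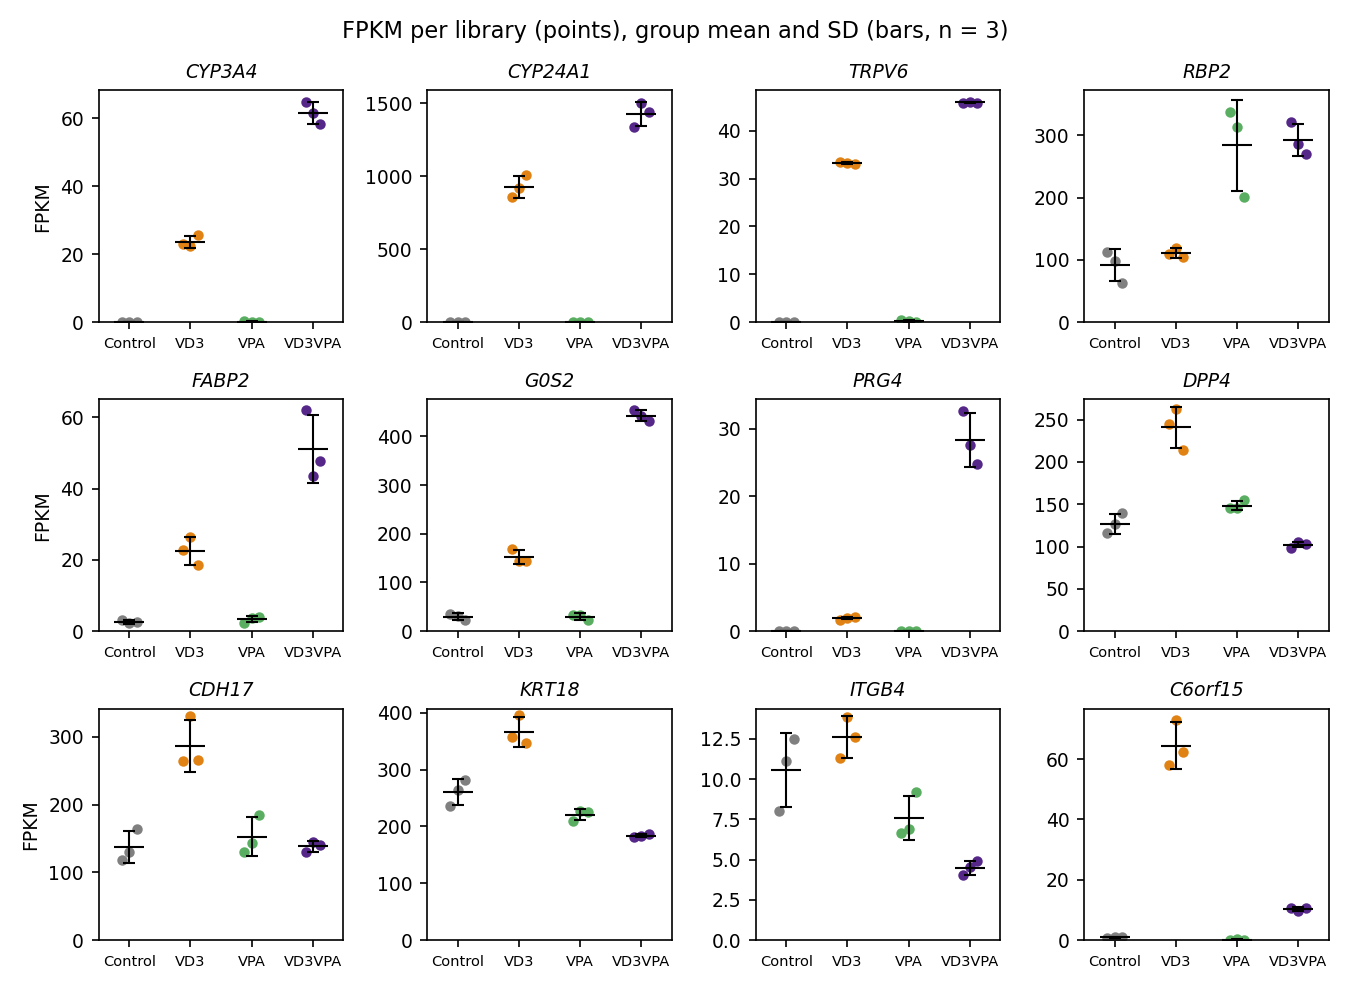
FPKM of 12 genes in each of the 12 libraries, by group, with the mean and SD over 3 libraries. CYP3A4, CYP24A1 and TRPV6 were near 0 without VD3 and higher with both compounds than with VD3, while DPP4, CDH17, KRT18, ITGB4 and C6orf15 were lower with both.

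Of the small binding proteins for retinol and fatty acids typical of enterocytes, RBP2 and FABP2 rose, while FABP1 did not pass (adjusted p = 0.056), at 481 ± 50.2 and 639 ± 52.5 FPKM. RBP2, the cellular retinol-binding protein of enterocytes (chromosome 3, 139452884 to 139480747), measured 109, 119.7 and 105 FPKM with VD3 and 321, 285 and 270.4 FPKM with VPA added. That is 2.63-fold (log2 fold change 1.39, SE 0.21, adjusted p = 0.00056), and VPA also raised it without VD3 (log2 fold change 1.62, adjusted p = 7.4e-05, interaction adjusted p = 0.56). FABP2, the intestinal fatty acid-binding protein, measured 22.7, 26.4 and 18.6 FPKM with VD3 and 62, 43.6 and 47.8 FPKM with VPA added (log2 fold change 1.14, SE 0.18, adjusted p = 0.00065). The triglyceride transfer protein gene MTTP rose from 46 ± 2.67 to 74.3 ± 0.529 FPKM, though it overlaps TRMT10A and an antisense gene. ACSL5, an acyl-CoA synthetase of the small intestine, rose from 19.9 ± 4.09 to 30.2 ± 0.563 FPKM and overlaps ZDHHC6. In lipid absorption and lipoprotein assembly, 9 of 29 tested members rose and 4 fell (31% and 13.8%, but 2 falls without VD3VPA replicate 3). Their median log2 fold change was 0.09, or 0.14 with quantile normalization and 0.17 with a filter of 5 FPKM. Over all genes 17.5% rose and 17.2% fell. The apolipoprotein APOA4 did not pass, at 4797, 5469.6 and 3348 FPKM with VD3 and 5743, 5016 and 4700.2 FPKM with VPA added (adjusted p = 0.5). In steroid and retinoid metabolism 7 of 17 tested members rose and 5 fell (41.2% and 29.4%, but 3 falls without VD3 replicate 2). DHRS9, a retinol dehydrogenase, fell from 1.99 ± 0.268 to 0.583 ± 0.0799 FPKM.

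Fatty acid oxidation and ketogenesis was among the lists with more rises than the background of 17.5%: 15 of 27 tested members rose and 4 fell (55.6% and 14.8%, but 2 falls without VD3 replicate 1 or VD3VPA replicate 2 or 3 and 2 falls with no filter on low values over 30 genes), with a median log2 fold change of 0.17. PDK4, the kinase that turns off pyruvate dehydrogenase in fasting, measured 0.447, 0.435 and 0.302 FPKM with VD3 and 2.04, 1.91 and 1.94 FPKM with VPA added. It was low in both groups, and its groups did not overlap (log2 fold change 1.09, adjusted p = 6.9e-05). The transcription factor CREB3L3, which drives fasting lipid genes, rose from 19.5 ± 1.88 to 34.2 ± 3.0 FPKM, and CPT1A, the gate for fatty acids into mitochondria, from 0.699 ± 0.0391 to 1.48 ± 0.236 FPKM. VNN1, a pantetheinase, fell from 12.9 ± 2.4 to 5.98 ± 0.436 FPKM (log2 fold change -0.98). The lipid droplet coat PLIN2 did not pass, at 5.1 ± 0.943 and 5.83 ± 0.345 FPKM. In cholesterol synthesis and uptake 4 of 25 tested members rose and 5 fell (16% and 20%, but 2 rises without VD3VPA replicate 1, 2 rises with GC content and length trends removed or with these trends removed and the replicate block, 3 falls without VD3 replicate 3 or VD3VPA replicate 2 and 3 falls with no filter on low values), close to the shares of all genes. The sterol sensor gene INSIG1 rose by 0.43 on the log2 scale.

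Drug-metabolizing enzymes changed in both directions. For comparison, 17.5% of all genes rose and 17.2% fell. In phase I, the oxidizing and hydrolysing enzymes, 13 of 29 tested members rose and 6 fell (44.8% and 20.7%, but 3 falls without VD3 replicate 3 or VD3VPA replicate 3 and 3 falls with no filter on low values over 41 genes), with a median log2 fold change of 0.22 (0.03 with no filter on low values). ALDH1A1, an aldehyde dehydrogenase that also makes retinoic acid, measured 8.39, 7.36 and 7.87 FPKM with VD3 and 12.3, 11.4 and 12 FPKM with VPA added (log2 fold change 0.54, SE 0.05, adjusted p = 4.3e-05). FMO5, a flavin monooxygenase, fell from 13 ± 1.02 to 8.33 ± 0.795 FPKM and overlaps other genes. In phase II, the conjugating enzymes, 9 of 30 tested members rose and 4 fell (30% and 13.3%). The glucuronosyltransferases UGT2B15, UGT2A3 and UGT1A1 fell: UGT2A3 measured 17.8, 15.3 and 13.1 FPKM with VD3 and 7.89, 7.64 and 7.72 FPKM with VPA added, and UGT1A1 29, 31.4 and 42 FPKM with VD3 and 19.2, 18.3 and 17.4 FPKM with VPA added. Neither overlapped between groups, but the UGT1A genes share exons and cannot be fully separated. SULT1E1, the estrogen sulfotransferase, rose from 2.38 ± 0.181 to 5.31 ± 0.702 FPKM.

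Among efflux and uptake transporters of drugs 10 of 23 tested members rose and 6 fell (43.5% and 26.1%, but 6 rises without VD3VPA replicate 3). Over all genes 17.5% rose and 17.2% fell. The organic anion transporters SLCO4C1, SLCO1A2 and SLCO1B1 rose by 0.60, 0.55 and 0.52 on the log2 scale. SLC15A1, the peptide transporter PEPT1 of the brush border, measured 77.9, 89.3 and 72.4 FPKM with VD3 and 52, 53.2 and 51.8 FPKM with VPA added, with no overlap (log2 fold change -0.60, SE 0.09, adjusted p = 0.00064). The efflux pump ABCB1 rose from 2.01 ± 0.295 to 2.62 ± 0.174 FPKM and ABCG2 fell from 123 ± 13.2 to 87.2 ± 2.16 FPKM (adjusted p = 0.02 and 0.00081). Of the nuclear receptors and xenobiotic sensors, 4 of 34 tested members rose and 9 fell (11.8% and 26.5%). The bile acid receptor NR1H4 fell from 3.3 ± 0.78 to 0.902 ± 0.123 FPKM, the aryl hydrocarbon receptor AHR from 9.52 ± 0.957 to 5.36 ± 0.161 FPKM and the retinoic acid receptor RARB from 1.03 ± 0.0749 to 0.464 ± 0.0726 FPKM, the last overlapping TOP2B. PXR (NR1I2) was at 0.596 ± 0.062 and 0.343 ± 0.0386 FPKM and did not pass.

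Nutrient and metal transporters went both ways, while 17.5% of all genes rose and 17.2% fell. Of the nutrient transporters, 11 of 33 tested members rose and 12 fell (33.3% and 36.4%, but 7 rises without VD3 replicate 1 or 2 or VD3VPA replicate 2). The glucose transporter SLC2A3 rose from 2.8 ± 0.914 to 6.13 ± 0.629 FPKM and the thiamine transporter SLC19A3 from 4.3 ± 0.602 to 7.7 ± 0.381 FPKM. The chloride-bicarbonate exchanger SLC26A3 fell from 26.7 ± 4.77 to 15.2 ± 0.165 FPKM and the cystine transporter subunit SLC7A9 from 10.5 ± 1.11 to 5.63 ± 0.305 FPKM. In the metal list 6 of 24 tested members rose and 4 fell (25% and 16.7%, but 2 to 3 rises without VD3 replicate 2 or VD3VPA replicate 2 or 3, 3 rises with no filter on low values over 31 genes or with equal FPKM sums and 2 falls without VD3 replicate 1 or 3 or VD3VPA replicate 3), shares not far from those of all genes. Ceruloplasmin (CP) rose from 35.3 ± 2.46 to 59.8 ± 4.96 FPKM, a call lost with a pseudocount of 0.1 FPKM (adjusted p = 0.124), and the iron importer SLC11A2 rose from 5.53 ± 0.21 to 9.3 ± 0.0532 FPKM. The zinc importer SLC39A4 fell from 4.75 ± 0.24 to 2.54 ± 0.226 FPKM and the ferroxidase HEPH from 203 ± 8.27 to 154 ± 3.74 FPKM. SLC46A1, the intestinal folate carrier, rose from 26.8 ± 0.594 to 40.3 ± 0.52 FPKM and overlaps SARM1. The iron exporter SLC40A1 measured 14.8 ± 0.68 and 12.9 ± 0.685 FPKM, and its fall was lost without VD3 replicate 1 or 3 (adjusted p = 0.103 and 0.108) or VD3VPA replicate 1 or 3 (adjusted p = 0.136 and 0.0793).

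Most of the brush border list fell, and the share that rose was near that of all genes. Of its enzymes and structural genes, 5 of 25 tested members rose and 14 fell (20% and 56%, against 17.5% and 17.2% of all genes), with a median log2 fold change of -0.22. DPP4, the peptidase that trims incretins, measured 245, 263 and 214 FPKM with VD3 and 98.8, 106 and 103 FPKM with VPA added. That is 2.35-fold lower, with no overlap (log2 fold change -1.22, SE 0.08, adjusted p = 2.7e-06). Its overlapping antisense gene AC008063.1 fell by 1.37, and fragments shared by the pair cannot be told apart without strand. Without VD3, AC008063.1 fell by 0.69 with VPA, where DPP4 rose, as given below. MYO7B, a myosin of the microvillus tip, measured 21.7, 24.4 and 22.9 FPKM with VD3 and 12.3, 13.8 and 13.2 FPKM with VPA added, and aminopeptidase N (ANPEP) 251, 233 and 207 FPKM with VD3 and 159, 139.7 and 142 FPKM with VPA added. Their log2 fold changes were -0.77 and -0.64. Lactase (LCT) measured 89.5, 95.1 and 95.2 FPKM with VD3 and 149, 158 and 147 FPKM with VPA added (log2 fold change 0.69, SE 0.09, adjusted p = 0.00022), and intestinal alkaline phosphatase (ALPI) 218, 206 and 231 FPKM with VD3 and 339.9, 303 and 299 FPKM with VPA added (log2 fold change 0.52, SE 0.10, adjusted p = 0.0018). Both enzymes were higher in every library with VPA. The endopeptidase neprilysin (MME) rose from 3.65 ± 0.199 to 6.77 ± 0.625 FPKM.

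Keratins, the intermediate filaments of epithelia, had the lowest median log2 fold change of the pathway lists, -0.76. Of 8 tested members 0 rose and 5 fell (0% and 62.5%, against 17.5% and 17.2% of all genes). With no filter on low values, which adds keratins near 0 FPKM, the median was -0.16, and the actin and contractile list was then lowest (-0.26). KRT18 measured 357, 397 and 346 FPKM with VD3 and 182, 182 and 186 FPKM with VPA added (log2 fold change -0.99, SE 0.07, adjusted p = 3.7e-06). Its partner KRT8 measured 415, 447 and 398 FPKM with VD3 and 211, 209 and 215 FPKM with VPA added (log2 fold change -0.98, SE 0.08, adjusted p = 1.1e-05). Both were lower in every library with VPA, at 2.0-fold and 1.99-fold. These genes overlap each other and have many pseudogenes, which makes the split between them uncertain. KRT7 fell from 33.2 ± 7.59 to 18.4 ± 0.658 FPKM and KRT19 from 350.2 ± 16.1 to 210.1 ± 6.28 FPKM, and KRT6A was low throughout, at 1.07 ± 0.0951 and 0.103 ± 0.0326 FPKM.

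Most junction genes fell, against 17.2% of all genes, of which 17.5% rose. In tight and adherens junctions, 2 of 26 tested members rose and 15 fell (7.69% and 57.7%), median log2 fold change -0.23. CDH17, the liver-intestine cadherin, measured 264, 331 and 265 FPKM with VD3 and 129.6, 145 and 140.0 FPKM with VPA added (log2 fold change -1.04, SE 0.14, adjusted p = 0.00028), with no overlap. The barrier claudins CLDN4 and CLDN6 fell from 189.9 ± 12.5 to 142 ± 5.73 FPKM and from 354 ± 17.7 to 246 ± 5.07 FPKM, and CLDN2 rose, as described above; CLDN6 overlaps TNFRSF12A. The members that rose were CLDN2 and CLDN12.

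Most actin and contractile genes fell: 5 of 32 tested members rose and 20 fell (15.6% and 62.5%, but 3 rises without VD3 replicate 3 or VD3VPA replicate 2), with a median of -0.34. Over all genes 17.5% rose and 17.2% fell. ACTB measured 1044, 1114 and 980.1 FPKM with VD3 and 719.7, 705 and 728 FPKM with VPA added (log2 fold change -0.54, adjusted p = 0.0001). TAGLN and CNN1, actin-binding proteins best known from smooth muscle, fell from 28.3 ± 4.61 to 15.6 ± 0.696 FPKM and from 2.39 ± 0.341 to 1.27 ± 0.10 FPKM, and TAGLN overlaps PCSK7. CNN3 of the same calponin family rose from 18.9 ± 0.723 to 30.8 ± 1.89 FPKM, and the myosin light chain MYL3, which overlaps PTH1R, rose from 5.51 ± 1.28 to 10.2 ± 0.408 FPKM.

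Matrix and basement membrane genes held more falls than rises. Of that list 6 of 29 tested members rose and 14 fell (20.7% and 48.3%, against 17.5% and 17.2% of all genes). With a filter of 5 FPKM, 3 of 23 genes rose. The median log2 fold change was -0.36. That median was -0.21 without VD3VPA replicate 1 and -0.18 with no filter on low values. ITGA2, a collagen-binding integrin subunit, measured 18.7, 20.5 and 15.2 FPKM with VD3 and 7.43, 8.77 and 8.87 FPKM with VPA added, with no overlap (log2 fold change -1.03, SE 0.16, adjusted p = 0.00068). Nidogen (NID1), which links laminin to collagen IV, went up, with 3.37, 3.35 and 3.48 FPKM with VD3 and 8.84, 9.16 and 9.2 FPKM with VPA added (log2 fold change 1.19, SE 0.06, adjusted p = 9.6e-07). Mesenchymal markers summed to 132 to 191 FPKM with VD3 and 179 to 202 FPKM with VPA added, with 1 of 5 tested members higher (COL1A1) and 1 lower (LUM). The COL1A1 call was lost without VD3 replicate 1, 2 or 3 or VD3VPA replicate 1 or 3 (adjusted p from 0.0668 to 0.154), and the part of these markers in the falls was not tested.

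**Figure D3:**
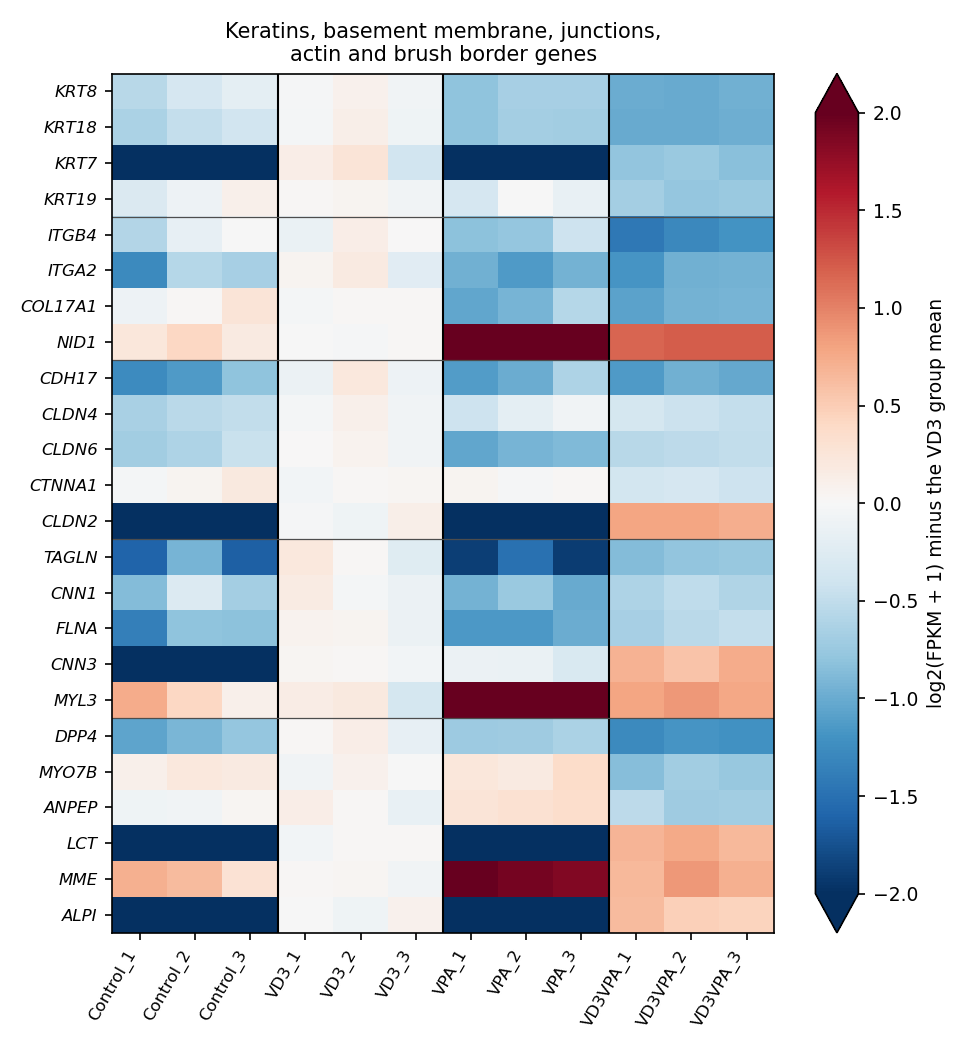
Values of log2(FPKM + 1) minus the mean of the VD3 group for 24 genes (rows) in 12 libraries (columns), with colours ending at -2 and 2. In the VD3VPA columns most rows are blue, while NID1, CLDN2, CNN3, MYL3, LCT, MME and ALPI are red.

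Growth factor and innate immunity lists also held more falls than rises. Over all genes 17.5% rose and 17.2% fell. Among ligands and receptors of the EGF and FGF families, 2 of 20 tested members rose and 10 fell (10% and 50%, but 1 rise without VD3 replicate 1 or 2 or VD3VPA replicate 1, 2 or 3 and 1 rise with no filter on low values over 26 genes). DUSP6, the phosphatase that ERK signalling induces, measured 11.4, 14.3 and 9.06 FPKM with VD3 and 5.28, 5.55 and 5.53 FPKM with VPA added (log2 fold change -0.94, SE 0.14, adjusted p = 0.00049). EGFR fell from 34.1 ± 1.251 to 25 ± 1.49 FPKM, with an overlapping antisense gene, and FGF19, the intestinal hormone that bile acids induce, rose from 0.211 ± 0.0727 to 1.18 ± 0.0498 FPKM. In BMP, TGF beta and Notch responses 4 of 26 tested members rose and 10 fell (15.4% and 38.5%, but 5 falls without VD3 replicate 2); JAG1 fell by 0.49 and BAMBI by 0.51, while MSX1 rose by 0.63. Of MHC class I, interferon and innate genes, 2 of 27 tested members rose and 10 fell (7.41% and 37%, but 1 rise without VD3 replicate 3 or VD3VPA replicate 1 or 3 and 1 rise with no filter on low values over 45 genes), among them the interferon regulator IRF7 (from 8.38 ± 0.395 to 5.26 ± 0.258 FPKM) and the chemokine CCL20 (from 3.24 ± 0.618 to 1.96 ± 0.0761 FPKM). In complement, coagulation and acute phase 5 of 30 tested members rose and 8 fell (16.7% and 26.7%, but 2 to 3 rises without VD3 replicate 3 or VD3VPA replicate 1); complement C3 fell from 9.11 ± 1.94 to 3.45 ± 0.151 FPKM, overlapping GPR108, and tissue factor F3 fell from 50.7 ± 6.18 to 27.9 ± 1.24 FPKM.

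Translation and sugar metabolism genes rose by small amounts. For comparison, 17.5% of all genes rose and 17.2% fell. Of cytosolic ribosomal protein genes, 30 of 42 tested members rose and 0 fell (71.4% rose), median 0.24, and the number that rose ran from 21 to 28 when 1 library was left out. RPS2 measured 235, 236 and 261 FPKM with VD3 and 355, 349 and 348 FPKM with VPA added (log2 fold change 0.52, SE 0.08, adjusted p = 0.00039), and these genes have many pseudogenes. In glycolysis and gluconeogenesis 13 of 26 tested members rose and 4 fell (50% rose), median 0.24. Enolase ENO1 measured 129, 117 and 108 FPKM with VD3 and 178, 175 and 177 FPKM with VPA added (log2 fold change 0.58). The hexokinases moved in opposite directions: HK1 rose from 3.12 ± 0.844 to 4.98 ± 0.312 FPKM and HK2 fell from 17.6 ± 0.475 to 9.22 ± 0.452 FPKM (adjusted p = 0.0032 and 2.4e-06). Of nuclear genes for respiratory chain subunits, 6 of 33 tested members rose and 1 fell (18.2% and 3.03%, but 1 to 3 rises without any 1 library, 1 rise with no filter on low values over 34 genes, 11 rises scaled to own totals, 10 rises with the 6 libraries fitted alone, 0 falls without VD3 replicate 2 or 3 or VD3VPA replicate 1, 2 or 3 and 0 falls with no filter on low values over 34 genes), a share of rises near that of all genes. COX5B rose from 100.3 ± 1.54 to 129 ± 5.19 FPKM. Of 13 mitochondrially encoded mRNAs 4 rose (MT-CO1, MT-CO2, MT-ND1 and MT-CYB), by at most 0.29 on the log2 scale, and 2 rose with quantile normalization and 7 when scaled to own totals. Without 1 library that count ran from 1 to 3, and the mitochondrial share of fragments, given above, moved with these genes; its part was not tested. The MT-CO2 call was lost without VD3 replicate 1, 2 or 3 or VD3VPA replicate 1 or 3 (adjusted p from 0.0502 to 0.0964), the MT-ND1 call without VD3 replicate 1 or 2 or VD3VPA replicate 1 (from 0.061 to 0.0756) and the MT-CYB call without any 1 of the 6 libraries (from 0.0788 to 0.146). With no filter on low values none of the 4 passed (adjusted p from 0.148 to 0.457).

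Growth and cell cycle genes moved both ways. The shares of all genes, for these lists and the stress lists, were 17.5% higher and 17.2% lower. Of the proliferation list 7 of 21 tested members rose and 3 fell (33.3% and 14.3%, but 4 rises without VD3 replicate 2 or 3 or VD3VPA replicate 2 or 3, 4 rises with no filter on low values over 33 genes and 1 rise with a filter of 5 FPKM over 6 genes). The replication helicase subunit MCM6 measured 4.69, 5.34 and 5.1 FPKM with VD3 and 10.3, 11.1 and 11.2 FPKM with VPA added (log2 fold change 0.97, SE 0.10, adjusted p = 3.4e-05), and the licensing factor CDT1 rose from 0.671 ± 0.0421 to 1.36 ± 0.173 FPKM. Cyclin D1 (CCND1), which overlaps LTO1, fell from 8.58 ± 1.53 to 5.67 ± 0.438 FPKM. Among MYC and polyamine genes 5 of 22 tested members rose and 7 fell (22.7% and 31.8%, but 3 rises without VD3 replicate 1 or 3 or VD3VPA replicate 2): MYC fell from 1.8 ± 0.638 to 0.769 ± 0.279 FPKM (adjusted p = 0.011), and ODC1, the first enzyme of polyamine synthesis, fell from 479 ± 24.1 to 293 ± 17.4 FPKM. MXD4, a repressor that competes with MYC for its partner MAX, rose from 3.48 ± 0.373 to 5.05 ± 0.25 FPKM. In p53 targets and growth arrest 8 of 28 tested members rose and 10 fell (28.6% and 35.7%, but 5 rises without VD3 replicate 3 or VD3VPA replicate 2); the inhibitor CDKN2B fell from 30.3 ± 2.98 to 13.6 ± 0.834 FPKM and GADD45G rose from 25 ± 1.46 to 40.5 ± 1.35 FPKM. Among stress responses, 5 of 28 tested members rose and 5 fell (17.9% and 17.9%) in the integrated stress and unfolded protein list. These were near the shares of all genes. ATF3 fell from 19.8 ± 1.48 to 11.9 ± 0.0252 FPKM. In the heat shock list 2 of 22 tested members rose and 6 fell (9.09% and 27.3%), and neither count was stable. The list held 1 rise without VD3 replicate 1 or 2 or VD3VPA replicate 1 or 3, 1 rise with no filter on low values, 4 rises with equal FPKM sums or with quantile normalization and 5 rises scaled to own totals, and 2 to 3 falls without VD3 replicate 1 or 2 or VD3VPA replicate 1, 2 or 3, 3 falls with no filter on low values and 2 falls scaled to own totals. HSP90AA1 fell from 112 ± 3.74 to 86.2 ± 1.52 FPKM.

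Genes known to respond to histone deacetylase inhibitors did not move one way. Of that list 4 of 22 tested members rose and 7 fell (18.2% and 31.8%, against 17.5% and 17.2% of all genes). Clusterin (CLU) measured 22.3, 21.4 and 20.7 FPKM with VD3 and 32.7, 29.4 and 30.0 FPKM with VPA added (log2 fold change 0.50, SE 0.05, adjusted p = 5.2e-05). The linker histone gene HIST1H1C measured 102, 107 and 91.8 FPKM with VD3 and 66.5, 60.4 and 62.5 FPKM with VPA added (log2 fold change -0.66, SE 0.08, adjusted p = 0.00017), and polyadenylated transcripts of histone genes are only part of their output. The cyclin-dependent kinase inhibitor CDKN1A, the textbook target of these drugs, was lower, from 178 ± 8.91 to 150.03 ± 5.38 FPKM (log2 fold change -0.25, adjusted p = 0.0049). Among writers, erasers and readers of histone acetylation, 4 of 30 tested members rose and 6 fell (13.3% and 20%, but 2 to 3 falls without VD3 replicate 1 or 2 or VD3VPA replicate 2 or 3 and 3 falls with GC content and length trends removed and the replicate block), near the shares of all genes. HDAC1, a target of VPA, rose from 19.6 ± 0.737 to 25.6 ± 0.214 FPKM (log2 fold change 0.37, adjusted p = 7.8e-05), HDAC3 rose from 12.1 ± 0.421 to 14.4 ± 0.559 FPKM, and HDAC2 fell from 6.42 ± 0.194 to 5.7 ± 0.153 FPKM (log2 fold change -0.15).

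Markers of other intestinal lineages were few. For comparison, 17.5% of all genes rose and 17.2% fell. Of 16 listed goblet and Paneth genes 5 were tested, 0 rose and 3 fell, REG3A was at 0 in every library, and the list summed to 147 to 178 FPKM with VD3 and 96.9 to 107 FPKM with VPA added. AGR2, a disulfide isomerase of mucus cells, measured 41, 44.7 and 51.6 FPKM with VD3 and 26.1, 24.2 and 26.3 FPKM with VPA added (log2 fold change -0.81, SE 0.17, adjusted p = 0.0033). The trefoil peptide TFF1 of stomach mucus measured 33.1, 33.8 and 45.4 FPKM with VD3 and 17.8, 16 and 19 FPKM with VPA added, and TFF3 fell from 15.6 ± 1.47 to 9.77 ± 0.648 FPKM. Of lineage transcription factors 5 of 24 tested members rose and 5 fell (20.8% and 20.8%, but 3 rises without VD3 replicate 1 or 2 or VD3VPA replicate 1 or 2); CEBPA rose from 72.7 ± 8.29 to 94.5 ± 4.19 FPKM, and ELF3, KLF4 and KLF5 fell by 0.45, 0.44 and 0.33 on the log2 scale. Stem cell markers summed to 17.4 to 17.8 and 20.5 to 20.8 FPKM, with LRIG1 and MSI1 higher and CD44 and PROM1 lower. The PROM1 call was lost without VD3 replicate 1 or 2 or VD3VPA replicate 2 or 3 (adjusted p from 0.0803 to 0.112). Pluripotent markers summed to 5.16 to 6.19 and 6.21 to 6.47 FPKM, with 0 of 3 tested members past the threshold.

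**Figure D4:**
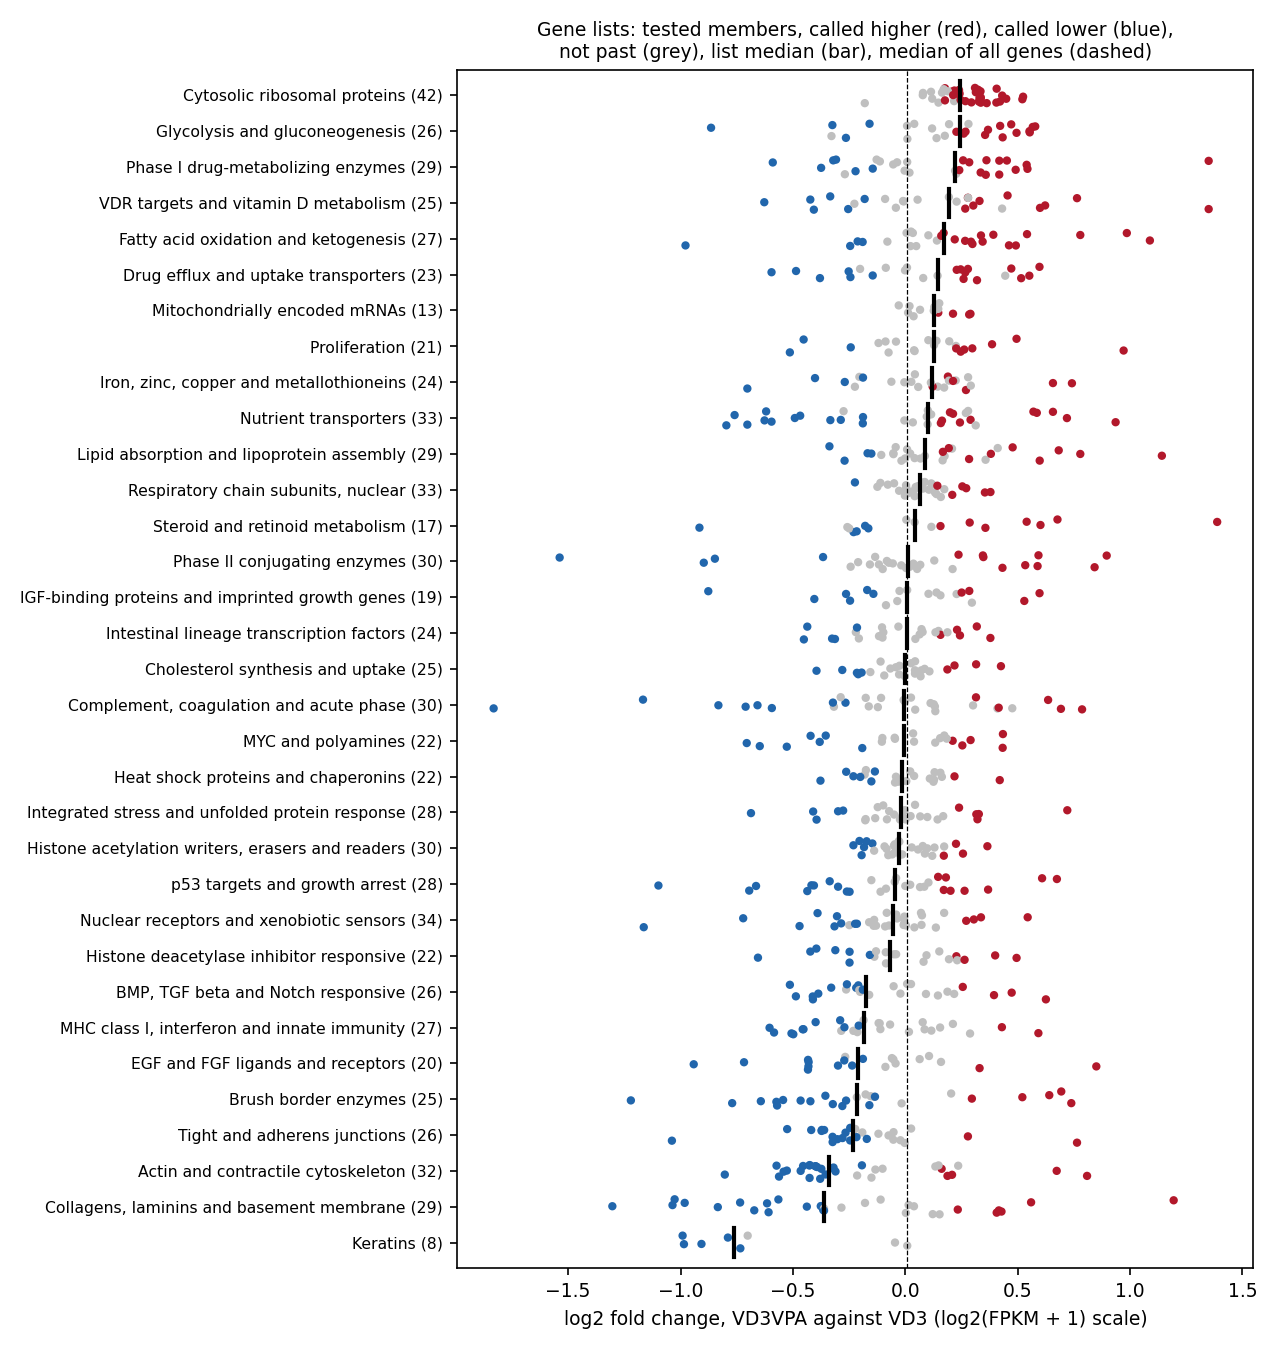
Log2 fold changes of VD3VPA over VD3 for the tested members of 33 gene lists (rows, with the number tested), ordered by median. Ribosomal protein and glycolysis genes have the highest medians at 0.24, and keratins the lowest at -0.76, with the median of all genes at 0.01.

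The effect of VPA was then set beside its effect without VD3, taken from the Control and VPA libraries. The fold changes have no library in common. The estimate of spread behind both sets of p-values came from all 12 libraries, so the calls are not independent. Without VD3, VPA changed 6614 genes (52.7%), with a median absolute log2 fold change of 0.20 against 0.13 with VD3. Genes called in both numbered 2593, 59.5% of the calls with VD3 and 39.2% of those without. Of these, 1605 moved the same way (1001 higher, 604 lower) and 988 opposite ways, 668 of them lower with VD3 and higher without. Across the 12561 genes, which are not independent replicates, Pearson's r between the log2 fold changes was 0.20 and Spearman's rho 0.14. Leaving out 1 library gave r from 0.15 (without VD3 replicate 3) to 0.23 (without Control replicate 1). The difference between the VPA effects (the interaction, with VD3 minus without) was called in 5566 genes (44.3%), 2390 positive and 3176 negative.

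**Figure D5:**
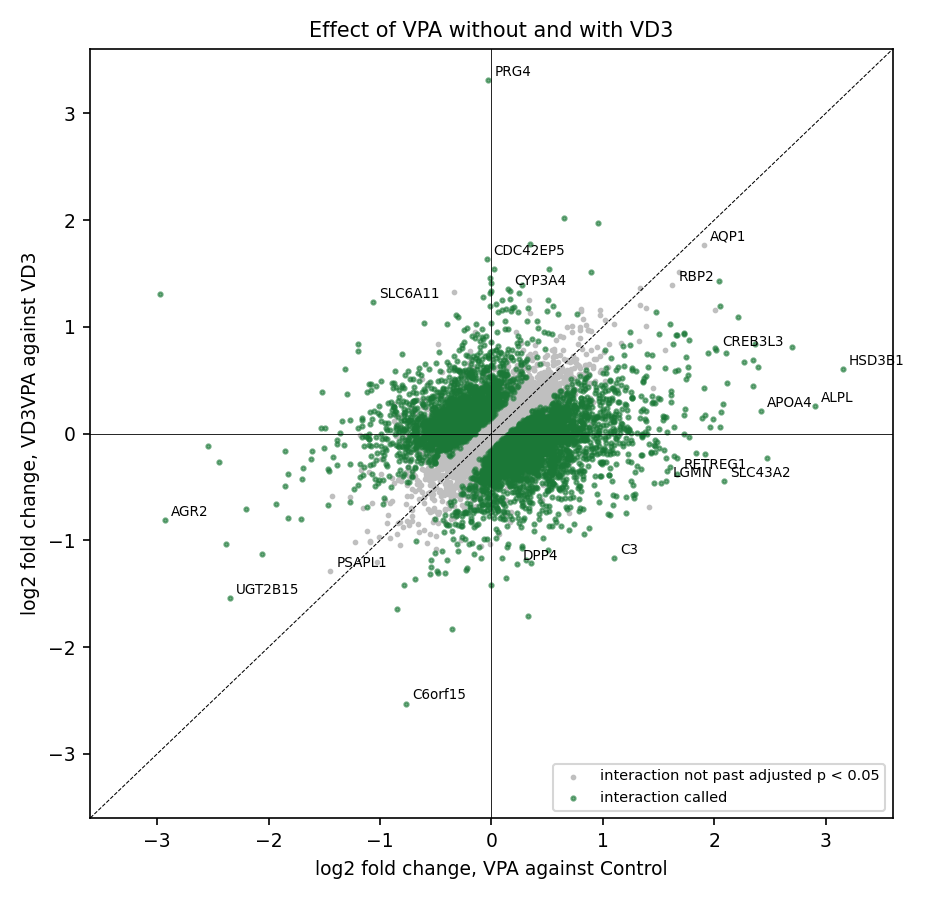
Log2 fold change of VPA over Control (x) against VD3VPA over VD3 (y) for 12561 genes, with equal effects on the dashed line. Green points are the 5566 genes with a called interaction: PRG4 rises on the y axis alone, ALPL, HSD3B1 and APOA4 lie far right and near 0 on y, and AQP1 and RBP2 lie near the dashed line.

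Several genes that VPA raised strongly alone rose little, or fell, once VD3 was present. HSD3B1, a steroid-synthesizing dehydrogenase, had 3.07, 2.26 and 2.13 FPKM in Control and 30.8, 29.2 and 29.5 FPKM with VPA alone, and 5.91, 4.96 and 4.27 FPKM with VD3 and 8.79, 8.49 and 7.17 FPKM with VPA added. Its log2 fold change was 3.15 without VD3 and 0.60 with it (interaction -2.55, adjusted p = 2.1e-06). ALPL, the tissue-nonspecific alkaline phosphatase, rose by 2.90 alone and did not pass with VD3 (adjusted p = 0.12; interaction -2.65, adjusted p = 2.1e-06). The amino acid transporter SLC43A2 reversed, with 3.49, 2.62 and 2.47 FPKM in Control and 16.9, 14 and 15 FPKM with VPA alone, and 1.26, 1.3 and 0.952 FPKM with VD3 and 0.573, 0.577 and 0.612 FPKM with VPA added (interaction -2.53, adjusted p = 1.2e-06). The lysosomal protease LGMN and the reticulophagy receptor RETREG1 did the same, at 1.57 and 1.67 without VD3 and -0.44 and -0.37 with it. Complement C3 changed by 1.10 without VD3 and -1.17 with it.

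Other genes rose beside VD3 while VPA alone lowered them, or fell less there. SLC6A11, a GABA transporter, had 7.76, 6.07 and 6.67 FPKM in Control and 4.0, 2.34 and 2.12 FPKM with VPA alone, and 1.4, 1.56 and 2.62 FPKM with VD3 and 5.12, 5.88 and 5.88 FPKM with VPA added. Its log2 fold change was -1.06 without VD3 and 1.23 with it (interaction 2.30, adjusted p = 4.6e-05). AGR2 fell by 2.93 without VD3 and by 0.81 with it (interaction 2.12, adjusted p = 4.7e-05), from 153 ± 49.99 FPKM in Control and 45.8 ± 5.41 FPKM with VD3. CYP3A4 changed by 0.15 without VD3, from a level near 0, and by 1.35 with it (interaction adjusted p = 3.5e-06), but its ratio in mean FPKM was 5.16 without VD3 and 2.61 with it.

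Of the 67 genes that rose at least 2-fold with VD3, 37 also rose with VPA alone, 2 fell and 28 did not pass. Of the 50 that fell, 27 also fell, 3 rose and 20 did not pass. Over all 12561 genes, 3715 were called higher and 2899 lower with VPA alone. Genes with no called interaction included AQP1 (1.91 without VD3 and 1.77 with it, interaction adjusted p = 0.54) and RARRES2 (1.68 and 1.51, interaction adjusted p = 0.35). The brush border enzymes LCT and ALPI rose by 0.65 and 0.35 without VD3, with interaction adjusted p of 0.8 and 0.34, but from 4.64 ± 0.579 and 9.87 ± 0.346 FPKM in Control. A p that misses the threshold does not show that the effects were equal. DPP4 rose by 0.23 without VD3 and fell by 1.22 with it (interaction adjusted p = 5.5e-06), and CDH17 changed by 0.15 and -1.04 (interaction adjusted p = 0.00074). Of the brush border list the median log2 fold change was 0.34 without VD3 and -0.22 with it, of the fatty acid oxidation list 0.33 and 0.17, and of the ribosomal protein list -0.22 and 0.24.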

How the data were processed

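Messenger RNA was measured by poly-A RNA sequencing in 12 libraries of 4 groups, 3 per group. The genome build was GRCh38.p13, and the tools listed were DESeq2 1.20.0, HISAT2 2.0.5 and featureCounts 1.5.0-p3, per the submitters' processing notes. Neither what each tool did nor whether strand was used is stated there. The authors deposited FPKM values per gene and library with gene lengths, per the file headers. Multiplying FPKM by gene length gave whole fragments (within 0.01) for 100.0% of values, and the scaling between libraries followed median-of-ratios factors. The 58735 identifiers matched GENCODE release 29 in start and end.

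Values were tested as log2(FPKM + 1) in limma 3.58.1 (R 4.3.3) with a trended prior and a mean per group over all 12 libraries, with 8 residual and 3.28 prior degrees of freedom. SEs of log2 fold changes had a median of 0.0658, and of 0.0931 for the interaction. P-values were adjusted by Benjamini-Hochberg over 12561 genes. The fit was also run on simulated data, with the same spread set for every gene and few genes changed. That run does not give the error rate of the calls in these data. Tables and figures used Python 3.11.15, pandas 2.3.3, numpy 2.4.6 and matplotlib 3.10.9. Promoters came from RefSeq (GRCh38.p14) and were matched by symbol. CYP24A1, LCT and S100G had no usable single entry there, so their promoters were not shown.

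The 45 lists (33 pathway and 12 cell type lists, 1176 genes), the 22 fixed genes and the rule for named genes were chosen with earlier results of these data known. The rule took the 12 largest rises and falls among called protein-coding genes whose groups did not overlap, the 5 largest of each in FPKM, the 5 most positive and negative interactions, the fixed genes, and up to 4 called members per list. Some genes that the rule takes are not reported here. Genes named outside it were chosen after their values were seen: ABCB1, ABCG2, AC008063.1, AFP, ANPEP, APOA1, CDKN1A, CDX2, CLDN12, CPT1A, FABP1, HDAC2, KRT19, NR1I2, RXRA, SI, TPR, VDR, VIL1 and those of the last section. Replicate pairs differed by more than sampling noise (chi-square per gene 3.785 to 23.175). Same-numbered VD3 and VD3VPA libraries did not deviate together (r 0.014 to 0.037), so the numbers were not used as pairs. Alternatives changed the pseudocount, filter, scaling, model, libraries and gene class.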

Additional observations from a re-analysis of the deposited data

Results flagged for a closer look

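For the genes below, the log2 effect of VPA with VD3 differed from its effect without VD3 by the interaction test of the limma fit (Benjamini-Hochberg adjusted p under 0.05 over 12561 genes). Each value is the interaction, the effect with VD3 minus the effect without, on the log2(FPKM + 1) scale.

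Among genes whose fitted effect was above 0 without VD3 and below 0 with it, the interaction was -2.533 for SLC43A2, -2.271 for C3, -2.043 for RETREG1, -2.014 for LGMN, -1.946 for CTSB, -1.883 for ENC1, -1.593 for PHGR1, -1.250 for SLC40A1, -1.053 for ACTB and -0.608 for ACTG1. Among genes with an effect above 0 in both settings and smaller with VD3, it was -2.646 for ALPL, -2.551 for HSD3B1, -2.207 for APOA4, -1.593 for CNN3, -1.553 for PLIN2, -1.411 for SUSD2, -1.237 for CREB3L3, -1.123 for PDK4, -0.614 for PCP4L1 and -0.458 for SLC46A1. ALPL, APOA4, PLIN2 and SUSD2 did not pass the test of VPA with VD3 present. Genes that were lower with VPA beside VD3, and less low without VD3, had interactions of -1.760 for C6orf15, -1.478 for SAA1, -1.414 for GPRC5A, -1.035 for ANXA1, -0.883 for ITGB4, -0.829 for EMP3, -0.797 for ECM1, -0.761 for TSPAN1, -0.710 for UPK1B and -0.632 for CTSE.

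Positive interactions in genes whose effect was above 0 with VD3 and at or below 0 without it were 0.473 for MT-CO2, 0.709 for MT-CO1, 0.863 for MT-ND1, 1.094 for AHSG, 1.416 for AMZ1, 1.475 for SLPI, 1.674 for CDC42EP5, 2.296 for SLC6A11 and 3.338 for PRG4. In genes with effects above 0 in both settings and larger with VD3 they were 0.624 for SCPEP1, 1.117 for MFAP2, 1.199 for CYP3A4, 1.373 for METTL7A, 1.431 for WFDC2 and 1.514 for G0S2. In genes that were lower in both settings, and less so with VD3, they were 0.808 for UGT2B15, 1.349 for TFF1, 1.5001 for ODC1 and 2.118 for AGR2. The adjusted p-values ran from 1.23e-07 (PRG4 and CTSB) to 0.025 (AHSG). CYP3A4, PRG4, AMZ1, SAA1, WFDC2 and C6orf15 were near or below 1 FPKM in Control and VPA, where the added 1 FPKM holds the fitted effect closer to 0. In mean FPKM, the ratio of VPA to no VPA was 0.185 without VD3 and 0.16 with it for C6orf15, 0.39 and 0.196 for SAA1, and 5.16 and 2.61 for CYP3A4, the last larger without VD3.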

How the results depend on the processing

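All alternatives were chosen with earlier results of these data known. The counts of at least 2-fold changes depended on how low values were treated. The 2-fold counts of 67 higher and 50 lower became 180 and 128 with a pseudocount of 0.1 FPKM, 109 and 79 with 0.5 FPKM, and 196 and 146 with voom on recovered fragments, which adds no FPKM. Voom called 2243 genes higher and 2219 lower. With a filter of 5 FPKM fewer genes (6717) were tested, and 1309 were higher and the interaction was called in 3647. Scaling to each library's own total gave 2683 higher and 1785 lower and moved the share of calls that were higher from 50.47% to 60.05% and the median log2 fold change of all genes from 0.01 to 0.04. Leaving out 1 library of either group gave 1636 to 1926 genes higher, 1684 to 1943 lower, 65 to 78 at least 2-fold higher and 47 to 56 at least 2-fold lower. Leaving out any of the 12 libraries gave 4887 to 5436 interactions. The replicate block gave 2121 higher and 2112 lower, and 2331 and 2086 after trends on GC content and length were also taken out. Over 178 named genes, 3239 of 3356 values kept their direction and side of the threshold, 114 in 20 genes no longer passed, 2 passed newly (S100G) and SUSD2 changed sign without VD3 replicate 3 (-0.009216, adjusted p = 0.945; up to 0.2164 without VD3 replicate 2). List medians changed sign for proliferation (-0.09659) and intestinal stem cell genes (0.5484) with the 5 FPKM filter, for histone acetylation genes with GC content and length trends removed, with and without the replicate block (0.006749 in both), for mesenchymal genes without VD3 replicate 3 (-0.06469; up to 0.221 without VD3 replicate 2) and for neural genes with no filter (0.003386). The cause of these changes was not tested. The part of depth in the calls of low genes was not tested.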

Other observations

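Some long non-coding and pseudogene transcripts also moved when VPA was added to VD3. The lincRNA, antisense and processed pseudogene classes were called less often than all genes. Of 360 tested lincRNAs 73 rose and 41 fell, a share called of 31.7%, against 37.2% of 10645 protein-coding genes and 85 calls in 425 antisense genes. The transcript FER1L4, annotated as a unitary pseudogene, measured 2.78, 1.94 and 1.48 FPKM with VD3 and 10.8, 11 and 10.8 FPKM with VPA added, and 0.154, 0.175 and 0.336 FPKM in Control and 1.58, 1.26 and 1.249 FPKM with VPA alone (log2 fold change 1.97, SE 0.12, adjusted p = 2.4e-06). It rose in both settings. The antisense gene NAV2-AS4 measured 1.5, 0.80 and 1.67 FPKM with VD3 and 5.95, 5.2 and 5.92 FPKM with VPA added (log2 fold change 1.54), and the lincRNA LINC01889 4.65, 3.06 and 5.4 FPKM with VD3 and 11.7, 13 and 11.7 FPKM with VPA added (log2 fold change 1.32). Among falls, the lincRNA AL365226.2 measured 6.27, 11.1 and 10.3 FPKM with VD3 and 3.03, 2.98 and 2.75 FPKM with VPA added (log2 fold change -1.35), and the processed pseudogene TIMM8AP1 15.8, 16.7 and 17 FPKM with VD3 and 3.98, 4.7 and 5.14 FPKM with VPA added (log2 fold change -1.65), whose fragments may belong to its parent gene. These genes were chosen after their values were seen, among called genes whose groups did not overlap.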
